A study of Mus musculus with 12 samples.

Results

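The uninjured Control group of a mouse primary cortical neuron culture is described here as a transcriptome of its own. It comprised 4 of the 12 polyA RNA sequencing libraries of the study, Control1 to Control4, chosen by their label, and no group was compared with another. The cells came from the cerebral cortices, without hippocampus and dura, of newborn C57BL/6J mice. They were dissociated with papain, plated on poly-D-lysine in neurobasal medium with SM1 supplement, and given arabinosylcytosine on day 1 for a day to hold down dividing glia. They were used between day 8 and day 10, neither scratched nor given TGF-β1. All values are therefore of cells that had met the DNA synthesis inhibitor. RNA of all cells of the culture was read together, so fewer cells of a type and less RNA per cell cannot be told apart. The labels do not say which animals or dishes gave which library, so the spread between the 4 libraries may be technical.

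A dissociated neonatal cortex is a mixture of excitatory projection neurons, which use glutamate, inhibitory interneurons, which use GABA, and glia. In such a culture neurons regrow axons and dendrites within days and then form synapses, while receptor subunits pass from a neonatal to an adult set. The levels of subunit genes, of transporters that set the chloride gradient and of cell type markers are the usual description of how far a culture has come and what it contains.

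The deposited table gave 55901 genes in FPKM, read counts scaled to exon length and to library depth. Reads could be recovered from it, and 15665381, 17381671, 15851239 and 15477690 reads fell on genes in Control1 to Control4, so that 1 FPKM stood for 15.4 to 17.0 reads per kilobase of exon. Values after ± are the SD over the 4 libraries (n = 4), counts of genes use a mean of at least 1 FPKM, and values of 4 libraries are given in the order Control1 to Control4. Control1 stood apart from the others. On principal components of log2(FPKM + 0.1) over 12750 genes, the first component held 44.7% of the variance and placed Control1 at 44.2 and the others between -17.9 and -10.3. The median absolute log2 deviation of a gene from the mean of the other 3 libraries was 0.15 in Control1 and 0.09 to 0.11 in the others. Results that move with Control1 are given with and without it.

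Mitochondrial genes, tubulins and other genes of the neurite cytoskeleton led the protein-coding genes. Of the 25 genes with the highest mean FPKM, 10 were encoded by the mitochondrial genome and 5 were tubulins. The highest mitochondrial gene was mt-Co1, a subunit of cytochrome oxidase, at 7303, 5524, 5071 and 5606 FPKM, followed by mt-Cytb (3588 ± 484 FPKM), mt-Nd1 (3279 ± 538 FPKM) and mt-Nd2 (1809.6 ± 316 FPKM). Control1 was the highest library for each of these. Tuba1a, an α-tubulin of growing neurites, reached 2388, 2192, 2078 and 2189.9 FPKM and Tubb3, the neuronal β-tubulin, 923, 993, 978 and 945 FPKM. The 4 values of Tuba1a all lay above the 4 of Tubb3. In the GENCODE M21 annotation 65.8% of the 100-base stretches of Tuba1a also stand in other genes, against 0% for Tubb3. The part of this in their order was not tested. Tubb2b (730.4 ± 37.9 FPKM), Tubb2a (699.5 ± 50.9 FPKM) and Tubb5 (661 ± 29.5 FPKM) followed, and the ranges of Tubb2b and Tubb2a overlapped. Eef1a1, a translation elongation factor, stood at 1393 ± 117 FPKM, the ribosomal protein gene Rplp1 at 927 ± 106 FPKM, the stathmin Stmn3 at 728 ± 41.9 FPKM, and the calmodulin gene Calm3 at 864 ± 53.7 FPKM. Actg1, a cytoplasmic actin, stood at 693 ± 20 FPKM and the selenoprotein gene Selenow at 690.5 ± 50.6 FPKM. Among the 100 highest nuclear protein-coding genes of at least 200 bases, 16 belonged to the 27 genes of the neurite cytoskeleton list and 10 to the 82 cytosolic ribosomal protein genes.

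**Figure D1:**
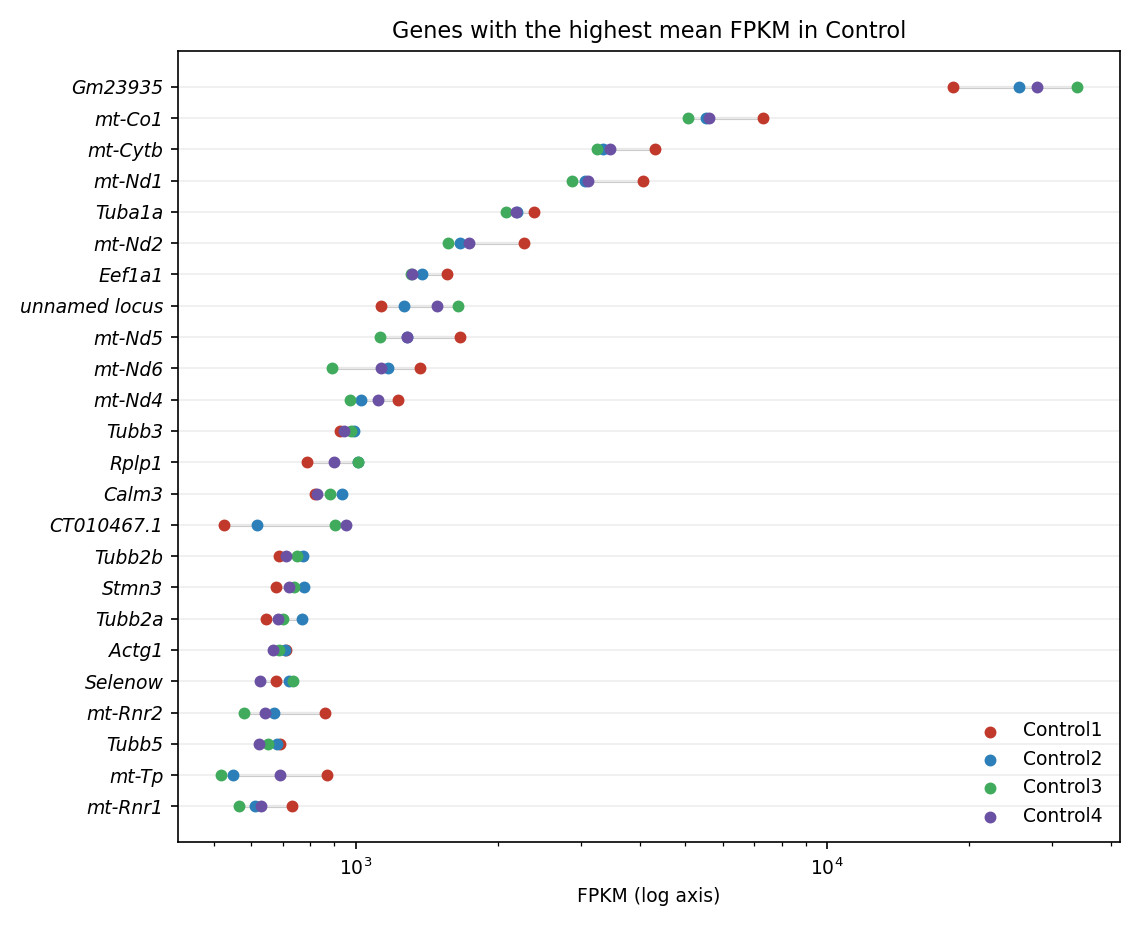
FPKM (log axis) of 24 of the 25 genes with the highest mean in Control, 1 point per library joined by a grey line. Control1 is the highest library for each of the 10 mitochondrial genes and the lowest for Gm23935, whose values of 18471 to 33875 FPKM stand above all others.

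The single highest value belonged to Gm23935, which is annotated as a miRNA gene (ENSMUSG00000076258, GRCm38 chr16:11144125-11144181, plus strand) and is only 57 bases long. Its sequence is shown because this gene alone took up to 11.9% of a library's summed FPKM. Its 57 bases, read from the GENCODE M21 transcript set of that build, are 73.7% G and C.

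Gm23935: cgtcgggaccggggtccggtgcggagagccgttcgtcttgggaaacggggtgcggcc

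Its levels were 18471, 25487, 33875 and 27908 FPKM. This was 6.76%, 9.05%, 11.9% and 10.1% of the summed FPKM of Control1 to Control4, from 16199, 24704, 30359 and 24520 reads, or 0.103% to 0.192% of all reads. Within the GENCODE M21 transcript set the same 57 bases stand whole in the transcripts of 3 genes, and the table divided the signal unevenly between them. Sequence outside that set was not searched, and whether the reads came from a miRNA was not tested. Gm24270 (chr9:56223715-56223771) was listed at 221, 178, 245 and 159 FPKM and Gm24245 (chr4:139338304-139338360) at 0 in each library. The signal therefore cannot be assigned to one locus. An assembled locus without a gene name (chr3:5860333-5860826) stood at 1381 ± 227 FPKM and the ribosomal RNA gene CT010467.1 at 525, 617, 903 and 953 FPKM, lower in Control1 and Control2 than in the other pair.

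By reads, protein-coding genes made up 97.6 ± 0.13% of each library, and by summed FPKM 83.7 ± 2.03%. The difference lay mainly in the class annotated as miRNA, with 9.72 ± 2.16% of summed FPKM but 0.155 ± 0.037% of reads. Most of that class's FPKM was the 57-base Gm23935, since FPKM divides by length. The 125 miRNA genes that reached 1 FPKM had a median length of 76 bases. Without genes shorter than 200 bases, protein-coding genes held 93.7% of the summed FPKM. Processed pseudogenes held 2.79 ± 0.17% of summed FPKM, long noncoding RNA 1.05 ± 0.042% and mitochondrially encoded genes 9.43%, 7.11%, 6.39% and 7.34%. The mitochondrial share was highest in Control1, with a mean of 7.57% over the 4 libraries and 6.95% without that library.

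In all, 12750 genes reached a mean of 1 FPKM, of which 10934 were protein-coding (49.9% of 21926 protein-coding genes), 612 were processed pseudogenes and 525 were long noncoding. A mean of 10 FPKM was reached by 4926 genes, 100 FPKM by 332 and 1000 FPKM by 11. The per-library number of genes with at least 1 FPKM ran from 12634 to 12881. Genes with any read numbered 22124 in Control1 and 23362 to 23629 in the others.

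Neuronal genes were abundant and even between libraries. All 15 pan-neuronal markers exceeded 10 FPKM, and their summed level was 2929, 2944, 2872 and 2785 FPKM. After Tubb3 came Gap43, a growth cone protein (603, 601, 563 and 534 FPKM), Uchl1, a neuronal ubiquitin hydrolase (353 ± 19.5 FPKM), Stmn2 (286 ± 17 FPKM) and Syn1, a synaptic vesicle protein (159.7 ± 5.82 FPKM). Map2 of dendrites stood at 106 ± 9.46 FPKM, Rbfox3, which encodes the nuclear antigen NeuN, at 55.1 ± 4.84 FPKM and Dcx of young neurons at 75.2 ± 6.59 FPKM. The lowest of the 15 were the neurofilament genes Nefl (26.6 ± 1.09 FPKM) and Nefm (15.8 ± 1.22 FPKM), of which Nefl shares 32.8% of its exon bases with Nefm in the annotation. The labelled cell type was thus borne out by its defining markers.

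**Figure D2:**
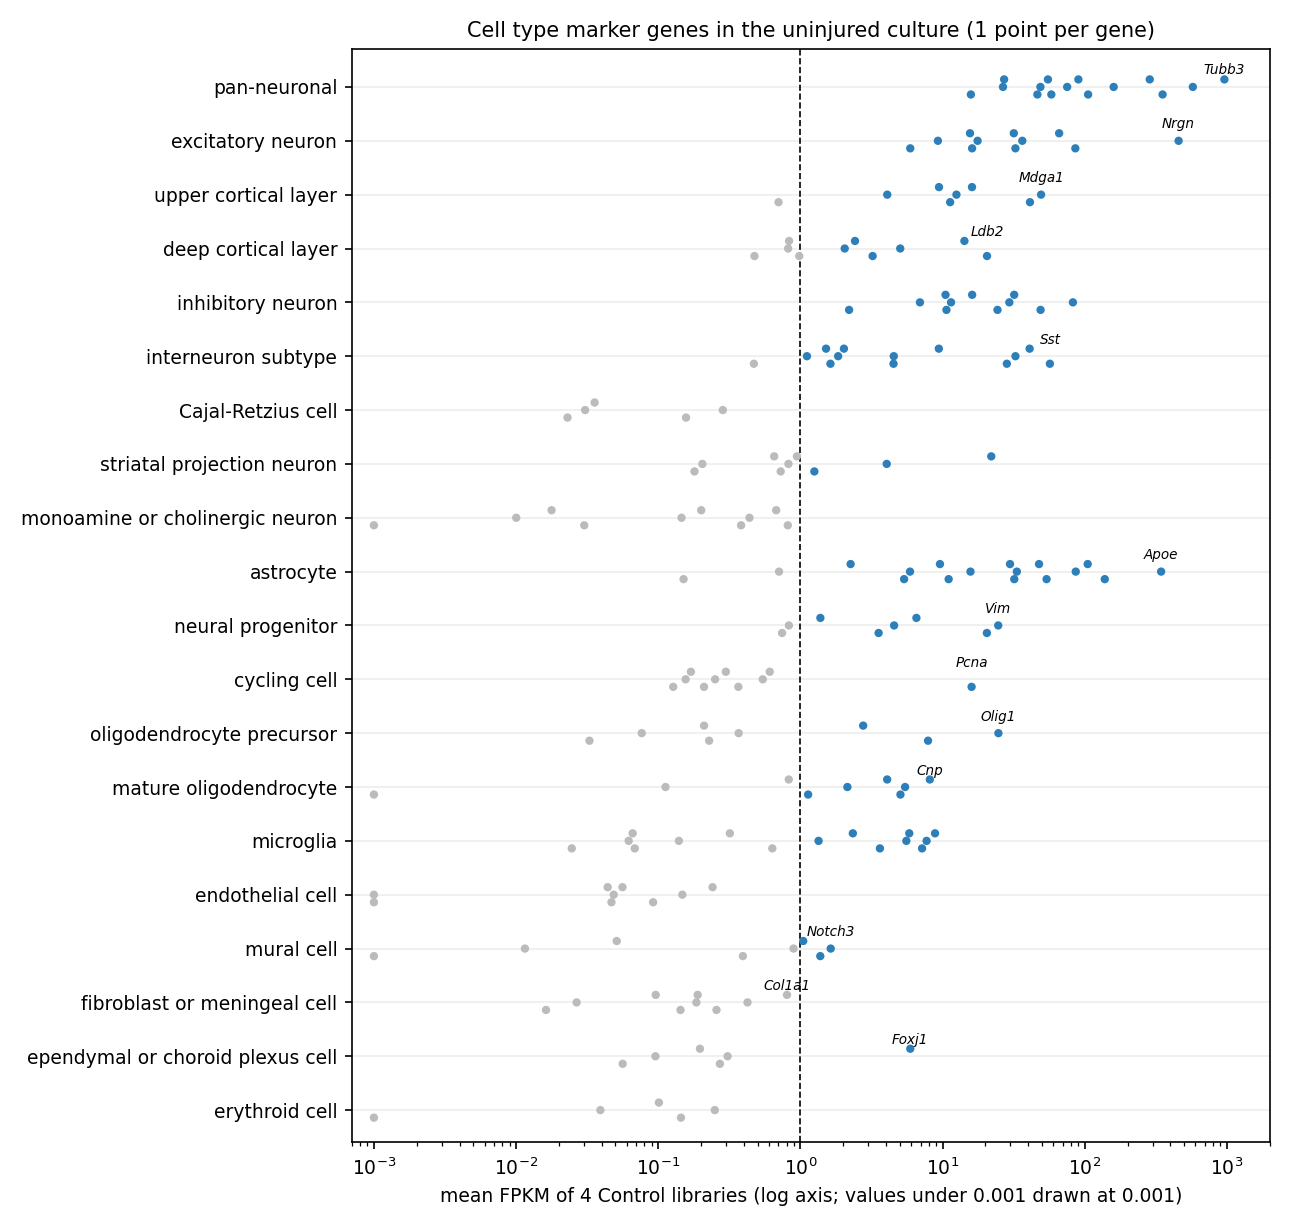
Mean FPKM of the 4 Control libraries (log axis) for each gene of 20 cell type marker lists, 1 point per gene, blue from 1 FPKM (dashed line) and grey below, with the highest gene named for most lists. All pan-neuronal, excitatory and inhibitory markers lie right of the line, while all genes of the endothelial, fibroblast, erythroid, monoamine and Cajal-Retzius lists lie left of it.

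Markers of excitatory neurons summed to 698, 841, 799 and 758 FPKM and those of inhibitory neurons to 259.6, 284, 281 and 275 FPKM, and all 11 genes of each list reached 1 FPKM. Nrgn, a calmodulin-binding protein of dendrites, supplied the largest part of the excitatory sum at 384, 512, 483 and 449.9 FPKM. Camk2a, the α subunit of calcium/calmodulin kinase II, reached 85.8 ± 3.05 FPKM and Slc17a7, the vesicular glutamate transporter VGLUT1, 66 ± 4.82 FPKM. Slc17a6, which encodes VGLUT2, was lower at 7.17, 5.55, 5.4 and 5.56 FPKM, and the ratio of Slc17a7 to Slc17a6 was 11.3 ± 1.98. The transcription factor genes Neurod2 (32.5 ± 2.39 FPKM), Emx1 (31.7 ± 5.65 FPKM) and Tbr1 (15.6 ± 0.311 FPKM) of cortical projection neurons were all expressed. On the inhibitory side the vesicular transporter Slc32a1 stood at 48.9 ± 3.39 FPKM and the GABA-synthesising enzymes Gad2 and Gad1 at 33.9, 31.4, 30.8 and 31.4 FPKM and 29.5, 29.8, 29.4 and 29.3 FPKM. The interneuron transcription factors Dlx1 (24.3 ± 1.33 FPKM) and Lhx6 (10.6 ± 0.369 FPKM) accompanied them. The summed levels of the 2 lists, which hold genes of different abundance, are no measure of cell numbers.

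Peptides and calcium-binding proteins that divide interneurons into types differed widely. Sst (somatostatin) reached 66.8, 61, 49.8 and 49.8 FPKM, Cck (cholecystokinin) 40.9 ± 4.41 FPKM, Npy (neuropeptide Y) 32.5 ± 2.32 FPKM and Calb2 (calretinin) 28.3 ± 4.2 FPKM. Vip stood at 1.66, 1.52, 1.29 and 1.58 FPKM and Pvalb (parvalbumin) at 0.749, 0.452, 0.244 and 0.436 FPKM, the only one of 13 genes of the list under 1 FPKM. The 4 values of Sst lay above all values of Vip, and those of Vip above all of Pvalb.

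Of the markers of cortical layers, 7 of 8 upper-layer and 6 of 10 deep-layer genes reached 1 FPKM. Mdga1 (49.3 ± 1.45 FPKM) and Lhx2 (41.2 ± 3.39 FPKM) led the upper-layer list, Cux2 and Cux1 stood at 11.3 ± 0.766 and 9.43 ± 0.311 FPKM, and Rorb of layer 4 neurons was low at 0.98, 0.531, 0.597 and 0.697 FPKM. Ldb2 (20.5 ± 2.8 FPKM) and Bcl11b, the factor CTIP2 (14.2 ± 0.764 FPKM), led the deep-layer list. Fezf2 (0.832 ± 0.156 FPKM) and Foxp2 (0.981 ± 0.167 FPKM) of subcortically projecting neurons stayed under 1 FPKM.

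Markers of hindbrain and spinal cord were at or near 0. None of 39 Hox genes, which mark hindbrain and spinal cord, and none of 10 midbrain or hindbrain factors reached 1 FPKM, and 35 of the Hox genes had no read in any library. Of 9 genes of striatal projection neurons 3 reached 1 FPKM, while the dopamine receptor genes Drd1 and Drd2 stood at 0.824 ± 0.118 and 0.944 ± 0.23 FPKM. None of 10 genes of monoamine or cholinergic neurons reached 1 FPKM, and neither did any of 5 Cajal-Retzius cell genes.

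Astrocyte genes were the largest glial signal. Of 17 markers, 15 reached 1 FPKM, and the summed level was 777, 1002, 957 and 948 FPKM. Control1 was the lowest, and the mean without it was 969 FPKM against 921 ± 98.7 FPKM with it. Apoe, the lipid carrier secreted by astrocytes, reached 248, 401, 381 and 348 FPKM, and Control1 was the low value. Fabp7 of radial glia and young astrocytes stood at 127, 136, 142 and 148 FPKM, Glul, glutamine synthetase, at 105 ± 9.25 FPKM, Aldoc at 86.4 ± 8.87 FPKM and the intermediate filament gene Gfap at 43.1, 49, 45.9 and 52.6 FPKM. The glutamate transporter genes Slc1a3 and Slc1a2 were at 33.3 ± 0.544 and 29.8 ± 0.98 FPKM and the water channel Aqp4 at 11 ± 0.637 FPKM. S100b (0.707 ± 0.192 FPKM) and the connexin gene Gjb6 (0.151 ± 0.0718 FPKM) were under 1 FPKM. Neurons and progenitors also express several of these, Apoe and Aldoc among them.

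Genes of dividing cells were low. Of 10 cell cycle genes only Pcna, which also serves DNA repair, reached 1 FPKM (15, 16.7, 15.8 and 16.5 FPKM), while Mki67 stood at 0.31, 0.222, 0.228 and 0.245 FPKM and Top2a at 0.699, 0.613, 0.501 and 0.619 FPKM. Of 8 progenitor genes 6 reached 1 FPKM, led by Vim (24.6 ± 1.36 FPKM) and Sox2 (20.5 ± 3.74 FPKM), while Pax6 (0.743 ± 0.113 FPKM) and Eomes (0.798, 0.679, 0.873 and 0.968 FPKM) of dividing cortical progenitors did not.

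The oligodendrocyte lineage list was split. Olig1 reached 22.7, 26.2, 25.2 and 24.7 FPKM and Olig2 7.9 ± 0.43 FPKM. The defining genes of precursors were near 0, with Pdgfra at 0.0324, 0.0763, 0.152 and 0.0453 FPKM, Sox10 at 0.228 ± 0.12 FPKM and Cspg4 at 0.21 ± 0.0388 FPKM. Of 9 genes of mature oligodendrocytes 6 reached 1 FPKM, at most 8.13 ± 1.14 FPKM for Cnp, with Mbp at 5.05 ± 0.407 and Mog at 4.07 ± 1.01 FPKM, and Opalin was listed at 0 in each library.

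Microglia genes gave a low and similarly split signal that summed to 40.8, 43.5, 44.2 and 46.5 FPKM. Of 15 genes 8 reached 1 FPKM, among them the complement genes C1qa (5.87, 7.75, 8.07 and 9.17 FPKM), C1qb (7.17 ± 0.618 FPKM) and C1qc (5.83 ± 0.304 FPKM). Cx3cr1 stood at 1.34 ± 0.153 FPKM and Csf1r at 0.634 ± 0.191 FPKM. Tmem119 (0.0683 ± 0.0587 FPKM), P2ry12 (0.14 ± 0.0793 FPKM) and Trem2 (0.0246 ± 0.0256 FPKM) were near 0.

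Genes of vessel and meningeal cells were at or near 0. None of 9 endothelial, 9 fibroblast or meningeal and 5 erythroid genes reached 1 FPKM, with Cldn5 at 0.0441 ± 0.0635, Pecam1 at 0.148 ± 0.0421 and Col1a1 at 0.805 ± 0.258 FPKM. Of 8 mural cell genes 3 passed, at most 1.63 ± 0.251 FPKM for Notch3. Of 6 ependymal or choroid plexus genes only the cilia factor Foxj1 passed, at 4.01, 6.57, 7.13 and 5.99 FPKM, lowest in Control1, while Ttr of the choroid plexus was at 0.0955 ± 0.0823 FPKM. Xist of the inactive X chromosome (39.1 ± 4.07 FPKM) and the Y-linked Eif2s3y (2.66, 2.56, 3 and 3.98 FPKM) were both read in each library, so each held RNA of female and male animals.

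Of 1583 genes with a transcription factor family in the table, 827 reached 1 FPKM, beside 49.9% of all protein-coding genes. The share was 87.5% of 48 ZBTB genes, 63.2% of 612 C2H2 zinc finger genes and 44.9% of 107 bHLH genes, but 12.6% of 230 homeobox genes. Ybx1, a cold shock protein that binds RNA and DNA, was the highest at 339.8 ± 26 FPKM, before the thyroid hormone receptor Thra (192 ± 17.1 FPKM) and Atf4 of the amino acid stress response (118 ± 2.55 FPKM). Bhlhe22 (117 ± 10.1 FPKM), Zbtb18 (117 ± 5.89 FPKM) and Mef2c (111 ± 8.04 FPKM) of cortical neurons followed, and the ranges of Atf4 and Bhlhe22 overlapped.

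The presynaptic machinery was expressed almost in full. Of 28 genes of vesicles and release 26 reached 1 FPKM, and their sum was 1757, 1837, 1767 and 1767 FPKM. The SNARE protein gene Vamp2 stood at 199.9 ± 7.67 FPKM, the complexin genes Cplx1 and Cplx2 at 155 ± 3.92 and 139 ± 6.87 FPKM and Syp, synaptophysin, at 113 ± 11.4 FPKM. Snap25, the third SNARE component, was lower at 46.4 ± 1.12 FPKM. Rims1, a scaffold of the release site, was read almost only in Control4 (0.00883, 0, 0.00864 and 0.679 FPKM), Cplx3 stood at 0.0933 ± 0.0755 FPKM and the vesicle GTPase gene Rab3a was at 1.9, 1.06, 1.8 and 1.46 FPKM. Of 23 postsynaptic scaffold and adhesion genes 22 passed, led by Nlgn2 of inhibitory synapses (85.9 ± 6.87 FPKM), with Shank1 of excitatory ones at 57.1 ± 3.62 FPKM and Dlg4, which encodes PSD-95, at 48.4 ± 4.82 FPKM. Secretory granule genes included Scg5 (89.4 ± 5.88 FPKM) and Chga (40 ± 5.31 FPKM), while Bdnf, the growth factor released with activity, stood at 0.606, 0.681, 0.471 and 0.553 FPKM.

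Receptors and channels were counted over 38 families with 446 genes. Of these, 248 reached 1 FPKM, 161 reached 5 FPKM, 95 reached 10 FPKM and 8 reached 50 FPKM, and 29 had no read in any library. Over all 21926 protein-coding genes the shares were 49.9% at 1 FPKM, 32.7% at 5 FPKM and 21.3% at 10 FPKM, and 5057 had no read. Ordered by mean within families, 118 of 212 neighbouring pairs of expressed genes did not overlap in their 4 values. No order was tested. The smallest p that a two-sided exact permutation test of 4 paired values can give is 0.125.

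**Figure D3:**
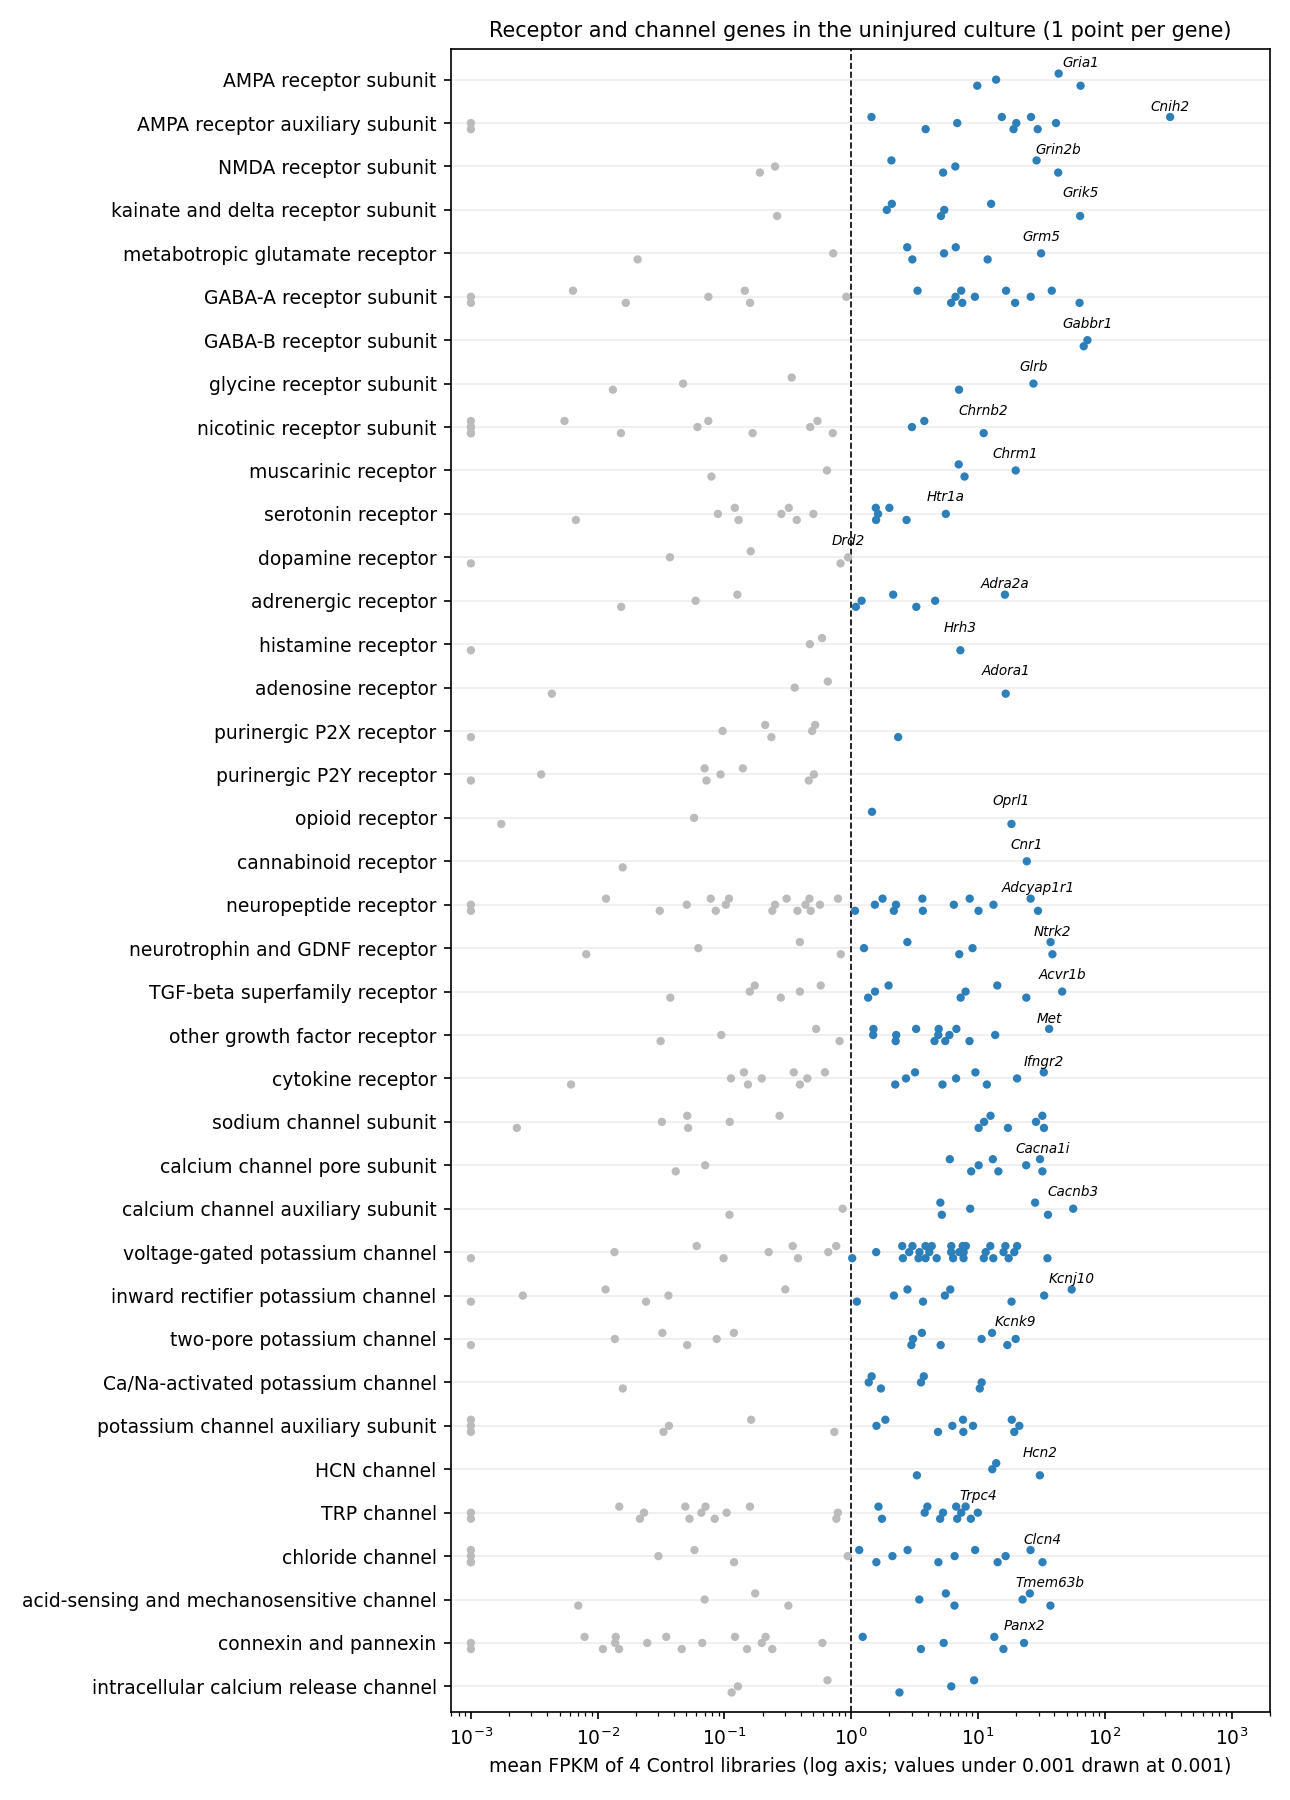
Mean FPKM of the 4 Control libraries (log axis) for each gene of 38 receptor and channel families, 1 point per gene, blue from 1 FPKM (dashed line) and grey below, with the highest gene named for most families. Glutamate and GABA receptor, sodium, calcium and potassium channel families hold most of the genes above 10 FPKM, and no dopamine or purinergic P2Y receptor reaches the line.

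All 4 AMPA receptor subunit genes, which carry fast excitation, were expressed and summed to 135, 130.2, 129 and 131 FPKM. Gria1 (63.9, 65.8, 64.5 and 63.3 FPKM) lay above Gria2 (47.6, 41, 40.8 and 43.5 FPKM) in every library, with a ratio of 1.5 ± 0.121, and Gria3 (13.9 ± 0.163 FPKM) and Gria4 (9.87 ± 0.338 FPKM) were lower. Among auxiliary subunits Cnih2, a cornichon that slows channel closing, was the highest of all receptor and channel genes at 306, 349.7, 343 and 311 FPKM. Cacng4 (41.2 ± 2.99 FPKM), Shisa7 (29.6 ± 0.689 FPKM), Cacng3 (26.2 ± 1.99 FPKM) and Cacng2, stargazin (15.4 ± 0.38 FPKM), followed. Cacng7 and Cacng8 were listed at 0 in each library, where 3 reads would give 0.0799 and 0.0831 FPKM at most, and neither gene shares over 5% of its exon bases or 100-base words with another gene in GENCODE M21.

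NMDA receptor genes, whose channels let calcium in at synapses, were led by Grin2b. Grin2b, the subunit that prevails at birth, stood at 45.9, 41.4, 42.1 and 42.2 FPKM and Grin2a, which rises later in life, at 5.36, 5.28, 4.82 and 5.78 FPKM. The ratio of Grin2b to Grin2a was 8.11 ± 0.671, with a range from 7.29 to 8.74. The obligatory subunit Grin1 was at 28.9 ± 0.572 FPKM and Grin2d at 6.62 ± 1.18 FPKM, and Grin2c and Grin3b stayed at 0.25 ± 0.0769 and 0.19 ± 0.0901 FPKM. The sum of the 7 genes varied little, from 85.5 to 86.8 FPKM. Of kainate receptor genes Grik5 led at 60.2, 65.2, 68.3 and 61.7 FPKM and Grik2 stood at 5.42 ± 0.468 FPKM, and of the metabotropic ones Grm5 (31.5 ± 1.03 FPKM) and Grm7 (11.9 ± 0.784 FPKM) led 6 expressed genes of 8.

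Of 19 GABA-A receptor genes, the chloride channels of fast inhibition, 11 were expressed. Among α subunits Gabra5 stood at 40.1, 39.9, 33.7 and 38.9 FPKM and Gabra3 at 30.9, 24, 24.2 and 25 FPKM, both above Gabra2 (3.62, 3.49, 3.23 and 3.01 FPKM). These 3 genes did not overlap in their 4 values. Gabrd, found outside synapses, stood at 7.51 ± 0.569 FPKM. The sum over the family was highest in Control1 (225, 201, 192 and 204 FPKM). The GABA-B receptor genes Gabbr1 and Gabbr2, which form a heterodimer, were near each other at 69.3, 77.4, 73 and 71.9 FPKM and 67.4, 70.2, 67.7 and 67.4 FPKM. Slc12a5, the chloride exporter KCC2 that rises as neurons mature, reached 48.3, 58.3, 58 and 53.1 FPKM, and Slc12a2, the chloride importer NKCC1 of young neurons, 4.76, 4.45, 4.41 and 4.86 FPKM. Their ratio was 11.8 ± 1.52. Of glycine receptor genes Glrb (27.4 ± 1.18 FPKM) and Glra2 (7.08 ± 0.899 FPKM), the α subunit of young neurons, were expressed, and Glra1 had reads in Control3 alone (0, 0, 0.0527 and 0 FPKM).

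Receptors for modulators were fewer and lower. Of 16 nicotinic genes 3 were expressed, Chrnb2 (11.1 ± 0.373 FPKM), Chrna7 (3.77 ± 0.636 FPKM) and Chrna4 (3.01 ± 0.294 FPKM), and of 5 muscarinic ones Chrm1 (19.8 ± 1.18 FPKM), Chrm3 (7.83 ± 0.906 FPKM) and Chrm4 (7.04 ± 1.29 FPKM). No dopamine receptor gene of 5 reached 1 FPKM, though Drd2 would without Control1. Htr1a (5.73, 5.53, 5.18 and 5.86 FPKM) led 6 of 14 serotonin receptor genes and Adra2a (15.6, 17.1, 16 and 16.5 FPKM) 6 of 9 adrenergic ones. Adora1, the inhibitory adenosine receptor, stood at 16.5 ± 1.22 FPKM, Hrh3 of histamine at 7.26 ± 0.606 FPKM, the cannabinoid receptor Cnr1 at 24.4, 23.7, 23.3 and 25.5 FPKM and the nociceptin receptor Oprl1 at 18.4 ± 1.8 FPKM. Oprm1, the μ opioid receptor, was at 0.0576 ± 0.0436 FPKM. Of 31 neuropeptide receptor genes 13 were expressed, led by Adcyap1r1, the PACAP receptor (29.7 ± 1.54 FPKM), and Sstr1 of somatostatin (26 ± 3.16 FPKM), whose ligand Sst was high in the same culture.

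Receptors of neurotrophins and other growth factors outside the TGF-β family were led by Ntrk2, the BDNF receptor TrkB (39.7, 38.9, 36.6 and 39.3 FPKM), Sort1 (37.3 ± 1.05 FPKM) and Met, the hepatocyte growth factor receptor (39.5, 35.1, 33.7 and 37.2 FPKM). Ngfr, the neurotrophin receptor p75, was at 0.393 ± 0.181 FPKM. For the TGF-β family, whose first member the study added to injured cells, the type I receptor Tgfbr1 stood at 2.17, 1.97, 2.03 and 1.71 FPKM and the type II receptor Tgfbr2 at 0.556, 0.582, 0.629 and 0.531 FPKM. The activin receptors Acvr1b (44.3, 47.7, 47.8 and 44.6 FPKM) and Acvr2a (24 ± 1.66 FPKM) were higher, as was Bmpr2 (14.2 ± 1.46 FPKM), and the ratio of Acvr1b to Tgfbr1 was 23.6 ± 2.37. The ligand genes Tgfb1 (0.309, 0.397, 0.151 and 0.322 FPKM), Tgfb2 (1.36 ± 0.237 FPKM) and Tgfb3 (1.57 ± 0.178 FPKM) were low. Of the transducers Smad4 stood at 17.8 ± 1.23 FPKM, Smad2 at 7.49 ± 0.5 FPKM and Smad3 at 2.93 ± 0.394 FPKM. Of 18 cytokine receptor genes 9 were expressed, led by Ifngr2 (33 ± 0.624 FPKM) and Cntfr of ciliary neurotrophic factor (20.3 ± 2 FPKM), while the interleukin-1 receptor gene Il1r1 was at 0.113 ± 0.045 FPKM.

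Sodium channel genes gave the most even family sum, 146, 145, 146 and 145 FPKM. Among pore subunits Scn2a (34.2, 31.6, 30.5 and 32.4 FPKM), which prevails in young axons, exceeded Scn8a (16.8, 17.3, 17 and 17.9 FPKM) of mature ones by a factor of 1.87 ± 0.114. Scn1a (11.2 ± 0.335 FPKM) and Scn3a (10.1 ± 0.614 FPKM) were lower. The peripheral channel genes Scn9a, Scn10a and Scn11a stood at 0.0517 ± 0.0386, 0.0321 ± 0.0336 and 0.0508 ± 0.0332 FPKM. Of 10 calcium channel pore genes 8 were expressed, led by Cacna1i of T-type channels (32, 32.2, 33 and 31.5 FPKM) and Cacna1b of N-type channels (28.5, 30.7, 31.6 and 32.4 FPKM), whose ranges overlapped. Cacna1a of P/Q-type channels followed at 24 ± 1.78 FPKM, and the L-type genes Cacna1c and Cacna1d were at 10.1 ± 0.334 and 5.99 ± 0.455 FPKM. Cacnb3 (56.3 ± 3.46 FPKM) and Cacna2d1 (35.6 ± 2.06 FPKM) led the auxiliary subunits.

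Of 40 voltage-gated potassium channel genes 31 were expressed. Among the highest were Kcnh3 (20.3 ± 1.85 FPKM), Kcnd2 of the A-current (19.3 ± 0.489 FPKM) and Kcnc1 of fast-firing neurons (17.4 ± 0.278 FPKM). Kcnj10, the inward rectifier of astrocytes, reached 53.8, 55.4, 53.1 and 57 FPKM, above Kcnj4 (33.3 ± 3.7 FPKM) and Kcnj3 (18.4 ± 0.728 FPKM). Of leak channel genes Kcnk9 (19.3, 18.9, 19.8 and 21.3 FPKM), Kcnk1 (17 ± 1.31 FPKM) and Kcnk2 (12.9 ± 0.858 FPKM) led, and the sum over the 14 two-pore genes was 71.4, 76.8, 76.9 and 76.7 FPKM, lowest in Control1. All 4 HCN pacemaker genes were expressed, with Hcn2 (29.2, 31, 31.7 and 31.1 FPKM) above Hcn3 (13.9 ± 0.667 FPKM) and Hcn4 (13 ± 0.712 FPKM). Trpc4 (9.96 ± 0.889 FPKM) led 12 of 26 TRP channel genes and Clcn4 (32.3 ± 1.34 FPKM) 11 of 19 chloride channel genes. The mechanosensitive channel gene Tmem63b (37.2 ± 1.75 FPKM) and the acid-sensing channel genes Asic1 (25.6 ± 1.13 FPKM) and Asic2 (22.4 ± 1.94 FPKM) were expressed, Piezo1 stood at 3.44 ± 0.305 FPKM, and Panx2 (23.1 ± 1.29 FPKM) led the connexin and pannexin genes, among which Gjd2, the neuronal connexin 36, was at 13.4 ± 0.546 FPKM.

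Genes that respond to activity or stress gave a baseline for the uninjured dish. Of 18 immediate early genes 13 reached 1 FPKM, and only Egr3 reached 10 FPKM (10.7, 11.4, 11 and 11.1 FPKM). Jun stood at 8.46, 9.29, 9.19 and 9.09 FPKM, Egr1 at 4.74 ± 0.777 FPKM, Fos at 1.55, 1.05, 1.3 and 1.63 FPKM, Npas4 at 1.65 ± 0.135 FPKM and Arc at 0.848 ± 0.25 FPKM, and Egr2 was listed at 0 in each library, where 3 reads would give at most 0.0574 FPKM. The summed level of 14 stress genes was 349, 322, 322 and 321 FPKM, highest in Control1. Atf4 supplied the largest share, before Mt1, a metallothionein (103, 76.5, 71 and 73.3 FPKM), in which Control1 was also the highest, and the chaperone gene Hspa5 (60.6 ± 1.94 FPKM), while Ddit3 stood at 8.91 ± 0.486 FPKM and the inducible Hspa1a at 1.57 ± 0.442 FPKM. A list of 19 autophagy and lysosome genes was drawn from those that the study singled out in its injured cells given TGF-β1, and is not all that it names. All 19 were expressed in Control, with a sum of 997, 1064, 1024 and 1017 FPKM. Of the genes measured by RT-PCR, Sqstm1, the autophagy receptor p62, stood at 113, 138, 135 and 127 FPKM, Lamp1 at 106, 99.5, 97 and 101 FPKM, Ctsd at 83.4, 86.7, 83.3 and 89.4 FPKM, Ctsb at 72.1, 77.4, 71.6 and 72.4 FPKM and Becn1 at 8.69, 9.68, 9.23 and 8.29 FPKM. Psap, the precursor of lysosomal activators, was higher at 354 ± 16.5 FPKM.

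The 16 genes that are often used as references differed in how even they were. Actb, β-actin, was the most even at 573, 560.1, 574 and 557 FPKM, a coefficient of variation (CV) of 1.56%. Tfrc (2.96%), Tbp (3.26%) and Hprt (3.82%) were also even, of which Tbp was low at 2.06 ± 0.0673 FPKM. Gapdh, the glycolytic enzyme gene (ENSMUSG00000057666, GRCm38 chr6:125161715-125166467), was both low and the least even at 2.08, 8.94, 2.89 and 18.1 FPKM, a CV of 92.5%, from 132 to 1154 reads. In GENCODE M21 20.9% of its 100-base words stand in other genes, and Control1 and Control3 were low and Control4 high. Ppia (18.5%) and B2m (17.8%) were the next least even.

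The spread between libraries exceeded counting error for most genes. Over the 12750 genes the median CV was 8.85%, against a median of 4.59% that the recovered reads alone would give, and 87.3% of genes lay above their counting value. The median CV was 14.5% for genes of 1 to 5 FPKM, 6.4% for genes of 10 to 50 FPKM and 5.93% from 100 FPKM, where counting would give 1.18%. Protein-coding genes had a median of 7.91%, other genes 28.4%, transcription factors 9.62% and the 248 receptor and channel genes 7.91%. Counting alone would give a median of 4.05% for protein-coding genes, 17.4% for other genes and 5.08% for transcription factors. Without Control1 the median over all genes was 7.07%. Extl3 (27.8, 27.7, 27.6 and 27.6 FPKM), Cnbp (76.3, 76.5, 76.3 and 77 FPKM) and Rbfox2 (62.5 ± 0.329 FPKM) were among the 10 most even protein-coding genes of at least 5 FPKM. Their CVs of 0.306%, 0.389% and 0.526% lay below the 1.94%, 1.65% and 1.11% that counting alone would give. Picked as the lowest of many genes with 4 values each, they are not thereby shown to be stable.

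**Figure D4:**
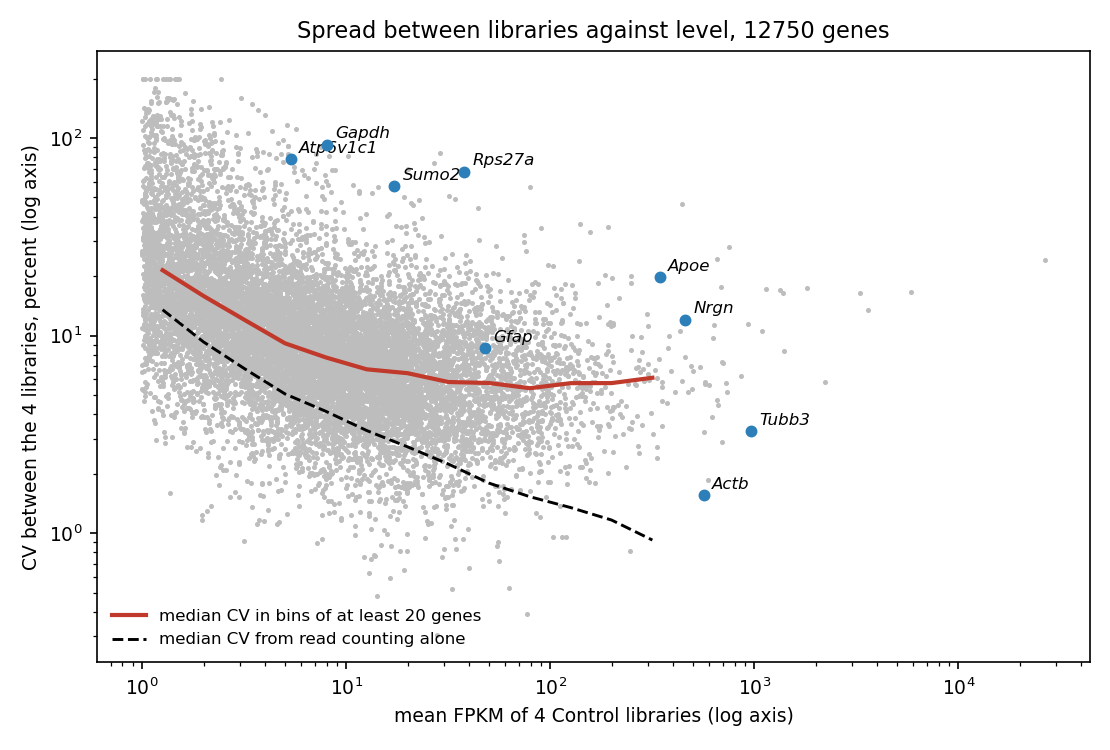
CV between the 4 libraries (percent, log axis) against mean FPKM (log axis) for 12750 genes in grey, with the median in bins in red and the median expected from read counting alone dashed. The red line stays above the dashed one at every level, and Gapdh, Atp6v1c1, Sumo2 and Rps27a lie above 50% while Actb lies at 1.56%.

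The 10 least even protein-coding genes of at least 5 FPKM included ubiquitin-family and ribosomal genes. After Gapdh and Gm17720, a gene of 27 bases with at most 4 reads, came Atp6v1c1 of the proton pump (5.38, 11.3, 2.23 and 2.53 FPKM), Rps27a, a ubiquitin fusion gene (75.9, 25.1, 27.3 and 22.6 FPKM), Sumo2 (28.8, 8.88, 9.2 and 22.1 FPKM), Nutf2-ps1 (7.62 ± 3.88 FPKM), the kinase subunit gene Pik3r2 (1.51, 5.65, 5.65 and 7.33 FPKM), Gm21954 (12.6 ± 5.2 FPKM), Rpl9-ps6 (21.5 ± 7.94 FPKM) and Rps27rt (216, 116, 122 and 106 FPKM). Control1 alone was high for Rps27a and Rps27rt and alone low for Pik3r2. The share of 100-base words held by other genes was 89.5% for Rps27rt, 95.9% for Nutf2-ps1 and 80.2% for Rpl9-ps6, but 0% for Atp6v1c1 and Pik3r2, and its part in the spread was not tested.

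A single library stood far from the other 3, by a gap above the 95% critical value of Dixon's ratio for 4 values, for 653 genes, or 5.12% of 12750, which is near the share of about 1 in 20 that the ratio gives by chance. They were unevenly divided, with 314 in Control1 (196 high and 118 low) and 119, 113 and 107 in the others. Control1 lay outside the range of the other 3 for 8121 genes (63.7%), and each other library for 41.4% to 48.5%, where 4 libraries that were alike would give 50% each. The distances were small for most, and of 7616 genes of at least 5 FPKM Control1 exceeded the others' range by over 2-fold for 7 and fell below it by as much for 7. The 5 farthest above were an unnamed locus, Gm2962, Rps27a, Gm9824 (147, 51.4, 56.7 and 63.6 FPKM) and Snord91a, and the 5 farthest below were Mir149, Gm1943, Pik3r2, Gm5854 (6.81, 27, 26.8 and 24.1 FPKM) and Gm17828. The deviation of protein-coding genes from the other 3 libraries had a Spearman correlation with gene length of 0.19 in Control1, -0.27 in Control2, -0.14 in Control3 and 0.14 in Control4. Each library's deviation is taken from the mean of the others, so the 4 correlations are tied and are not separate observations. The part of gene length in the results was not tested.

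**Figure D5:**
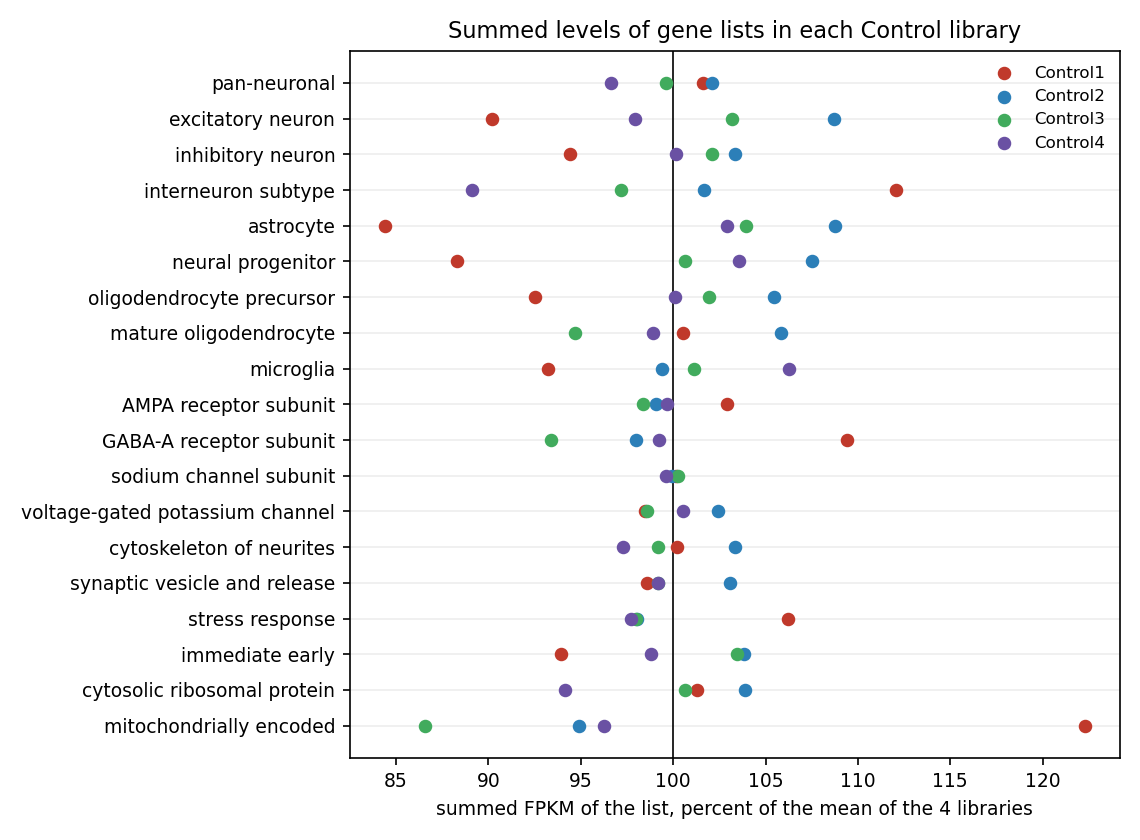
Summed FPKM of 19 gene lists in each Control library as a percentage of the list's mean over the 4 libraries, 1 point per library. Control1 (red) is the lowest for the astrocyte and excitatory neuron lists and the highest for mitochondrially encoded genes, while sodium channel sums nearly coincide.

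Of the 20 marker lists, Control1 was the lowest library for 12 and the highest for 2. Of the 38 receptor and channel families it was the lowest for 16 and the highest for 10. Over the 12750 single genes it was the lowest for 4097 and the highest for 4024. Some of the 12 marker lists held only genes near 0, such as the Cajal-Retzius list with a summed mean of 0.531 FPKM. Its mitochondrially encoded genes summed to the highest value, 25796, 20018, 18262 and 20308 FPKM. The ratio of the pan-neuronal to the astrocyte sum was 2.94 to 3.77 over the 4 libraries, highest in Control1, and that of the excitatory to the inhibitory sum 2.69 to 2.96. Whether the library held other proportions of cells or RNA of other quality was not tested.

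Few of the genes that share nearly all exon bases or sequence with other genes were counted as expressed. Of 239 protein-coding genes with over 95% of their exon bases inside exons of other genes in GENCODE M21, 0.837% reached 1 FPKM, and of 433 with over 95% of their 100-base words in other genes 3.46%, against 45.1% and 52.3% of genes with none. The mitochondrial genes mt-Co2 (56.8 ± 6.13 FPKM), mt-Co3 (33.8 ± 4.71 FPKM) and mt-Atp6 (39.6 ± 7.73 FPKM) stood far below mt-Co1, and 99.5%, 99.9% and 99.5% of their words stand in other genes. The other mitochondrial genes over 50% on either measure were mt-Nd4 (1085 FPKM), mt-Nd3 (70.2 FPKM) and mt-Nd4l (18.5 FPKM). Among those not over 50%, mt-Atp8 stood at 1.72 FPKM. The part of shared sequence in these levels was not tested. Among ribosomal protein genes, whose products are needed in every ribosome, 79 of 82 reached 1 FPKM. Rps10 stood at 1.57 FPKM and Rpl24 at 3.1 FPKM, against 927 FPKM for Rplp1. The members of this list with over 50% of exon bases or 100-base words in other genes were Rpl36, Rpl23a and Rpl35. Their means were 239, 131 and 74.2 FPKM. Rps10 and Rpl24 were not among them, and the cause of the low values of Rps10 and Rpl24 was not tested. Neither measure is high for Cacng7, Cacng8, Egr2, Rims1, Meg3 (0.12 ± 0.0514 FPKM) or Nrxn2 (0.00459 ± 0.00384 FPKM), which are known from cortical neurons, and the cause of their low values was not tested.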

How the data were processed

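PolyA RNA of 12 mouse cultures was sequenced in read pairs on an Illumina NovaSeq. Per the labels and methods, the authors used CASAVA for base calling and aligned reads to mm10 with HISAT2 2.0.5. They assembled loci with StringTie, counted reads per gene with featureCounts and deposited FPKM. FPKM is a count divided by gene length and by a library total, here 97.8% to 99.6% of the recovered reads on genes. The methods speak of fewer samples than were deposited. The 4 Control columns were used, and 8 columns of other groups were not used here.

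Each library's values, once multiplied by the length of the gene, were whole multiples of a single step (within 0.02 for 100% of values), and this gave the reads. No groups or genes were tested against each other, and Dixon's gap ratio was used alone, to mark a library far from the other 3. The order of 2 genes was described by whether their 4 values overlapped. Exon overlap and shared 100-base words came from GENCODE M21, matched by gene ID for 55240 of 55901 genes.

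The members and gene lists were chosen with earlier results of these data known. Genes were named if among the 25 highest, the highest 5 of a list, defining markers under 1 FPKM, subunit pairs that exchange with age, the 10 highest CVs, the 5 farthest above and below in Control1, or measured by RT-PCR. Others were named for their known role after their values were seen, and some genes that the rule names are not reported here. Python 3.11.15, pandas 2.3.3, numpy 2.4.6 and scipy 1.17.1 were used, and scripts were tested on simulated data.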

Additional observations from a re-analysis of the deposited data

Results flagged for a closer look

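In 23 of 357 measures over the 4 libraries (268 named genes, 79 list sums and 10 library totals) 1 library stood apart by a gap above the 95% critical value for 4 samples. Of the 23, 13 were in Control1. Chance gives about 1 in 20 such flags, but some genes were named for their distance in Control1 or their high CV. Neither count can therefore be set against that share.

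Among library totals, Control2 had the fewest genes with at least 1 FPKM, 12634 against 12845 to 12881. Among list sums, Control1 was alone low for mural cell genes (4.92 FPKM), ependymal or choroid plexus genes (4.61 FPKM) and two-pore potassium channels (71.4 FPKM). It was alone high for TGF-β superfamily receptors (109.9 FPKM) and stress response genes (348.6 FPKM). Control3 was alone high for cytokine receptors (103.9 FPKM) and Control2 for synaptic vesicle and release genes (1837 FPKM).

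Of the named genes, Control1 was alone high for Gabra3 (30.9 FPKM), Slc17a6 (7.17 FPKM), Rps27a (75.9 FPKM), Rps27rt (215.7 FPKM), Gm9824 (146.6 FPKM), Gm2962 (12.2 FPKM) and Snord91a (55.9 FPKM), and alone low for Gm5854 (6.81 FPKM). Of these, Rps27a, Gm9824, Gm2962, Snord91a and Gm5854 were named because of their distance in Control1 and Rps27rt because of its high CV, so their flags add nothing.

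Control2 was alone high for Ctsb (77.4 FPKM) and Gabbr2 (70.2 FPKM). Control3 was alone low for Tfrc (70.1 FPKM) and held the only reads of Glra1 (0.0527 FPKM). Control4 was alone low for Cux2 (10.2 FPKM) and alone high for Sort1 (38.9 FPKM) and Rims1 (0.679 FPKM, from 77 reads against 0 to 1 in the others).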

How the results depend on the processing

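No paired analysis was possible because a single group was used, with no groups to pair, and pairs of genes were described without a test. Depth limits low genes, since 1 FPKM on 1000 bases is 15.4 to 17.0 reads, and intervals of counting error leave out differences between cultures. Median-of-ratios scaling and equal FPKM totals moved no gene level or list sum by more than 1 SD. Their factors ran from 0.998 to 1.01 and from 0.978 to 1.02, on both sides of 1, so a mean over 4 libraries could hardly move. Such a mean also cannot move by 1 SD when 1 library is left out. Neither the scalings nor the left-out libraries were therefore a check of the levels.

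At a mean of 5 FPKM, 7616 genes and 161 receptor and channel genes were counted. Taken over reads in place of FPKM, the share of protein-coding genes was 97.6%, of mitochondrially encoded genes 2.43%, of miRNA 0.155%, of long noncoding RNA 0.943% and of processed pseudogenes 0.444%. With genes under 200 bases left out, a choice made after seeing the data, these were 93.7% for protein-coding genes, 0% for miRNA and 1.18% for long noncoding RNA. With mitochondrial genes left out of the total, long noncoding RNA held 1.14% and processed pseudogenes 3.02%. The median CV was 32.9% with no filter, 6.80% from 5 FPKM and 7.91% for protein-coding genes. Leaving out 1 library in turn gave 7.07% to 8.92%, the lowest without Control1. The other settings of main results, means without 1 library and rescaled levels and sums aside, stayed within 1 SD or 1.5 times. With genes over 50% overlapped or shared left out, also chosen after seeing the data, the neurite cytoskeleton sum was 8442 FPKM and the stress sum 314.6 FPKM. The cause of these changes was not tested beyond what each setting leaves out.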
